A study of Glycine max with 36 samples.

Results

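SARK and VPE2 are soybean genes named for leaf senescence and for vacuolar protein processing. They were followed through every probe that the array annotation gives to either gene alone. These are 5 of the 19200 probes on the array: Gm14453, Gm06155 and Gm06099 for SARK, and Gm05964 and Gm16176 for VPE2. Each probe name is given without its shared ending, cDNA18kA. Of the 5 members, 4 were among the 17062 probes tested. Gm16176 had a value on 17 of 36 arrays and was not tested. The genes were chosen by results of these data. For SARK these were the values of Gm14453 at 2 h after atrazine and at 2 and 4 h after bentazon. For VPE2 they were the values of Gm05964 at 4 and 8 h after bentazon. Those values, and every difference that holds one of those herbicide RNAs, are given below as a description, with no p-value. Other differences that hold water at those times share its RNA with the values of choice, and are not free of that choice. The annotation pairs probes with genes by symbol, and other names or sequences of these probes were not used here.

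The study sprayed soybean plants of cultivar Williams 82, at the V1 stage and about 2 weeks old, and extracted RNA from the leaflets of the earliest trifoliate leaf, 3 of them pooled. Plants grew in a greenhouse at 25 C with 16 h of daylength. The 3 treatments were a mist of atrazine at 22 to 25 mM, a mist of bentazon at 22 to 25 mM, and water with 1% of the adjuvant Herbimax as the control. The labels of the herbicide sprays do not say whether they held the adjuvant. Leaves were taken 1, 2, 4 and 8 h after spraying, which makes 12 RNA groups. Each RNA was labelled with Cy3 and Cy5 dye and set against its neighbours in a closed loop of 12 comparisons on 2-colour cDNA arrays, with 3 biological replicates and so 36 arrays. At 1 time both herbicides are set against the same water RNA, and atrazine minus bentazon uses the same herbicide RNAs as the differences from water, so the 3 differences are not independent of each other.

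SARK is a leucine-rich repeat receptor-like kinase of the plasma membrane, known from soybean as a promoter of leaf senescence, the ordered breakdown of the leaf at the end of its life. VPE2 belongs to the vacuolar processing enzymes, cysteine proteases that cut after asparagine, mature proteins in the vacuole and take part in some forms of plant cell death. Atrazine and bentazon both block electron transport at photosystem II. Soybean tolerates bentazon through metabolism in the leaf and is sensitive to atrazine.

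The deposited log ratios do not say which dye is the numerator, nor the base of the logarithm, which was taken as log2. All values were therefore turned so that PDR12, a gene of the ABC transporter family, is positive for bentazon minus water at 2 h. A positive value lies on the side of PDR12 and a negative one on the opposite side, and neither is stated here as higher or lower expression. The deposited values read as Cy3 over Cy5 would put PDR12 above water in bentazon, and read as Cy5 over Cy3 below it. Leaf RNA is a mix of cell types, and fewer cells of a type cannot be told apart from less RNA per cell.

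Arrays held between 16648 and 18484 values each. Correlations between replicate arrays of a comparison ran between -0.296 and 0.800, and the lowest belonged to water at 2 h against water at 1 h. There, and in single arrays of water at 8 h against 4 h and of bentazon against water at 8 h, 4 arrays fitted the sums around their loop less well as labelled than with reversed sign. Results that change without those arrays are named in the closing part. Ratios give no absolute level, so the tissue label could not be checked against marker genes.

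Gm14453, the SARK probe with the widest range, lay on the side of PDR12 in bentazon minus water in all 6 single-loop values at 1 and 8 h, the times that did not serve to choose SARK. At 1 h its log2 difference was 3.89, 1.91 and 3.24 in the 3 replicate loops, each solved alone. Here and below, the SE of a fitted difference comes from the moderated spread over all arrays of the probe, not from its 3 loops alone. The fitted difference at 1 h was 3.01 ± 0.454 (SE; limma, Benjamini-Hochberg adjusted p = 4.00e-05). This is the first time sampled, and none of the 3 loops came near the water level. At 8 h the loops stood at 1.14, 3.14 and 0.90, and the fit gave 1.73 ± 0.454 (limma adjusted p = 0.00962). Replicate 2 was far above the other loops at 8 h. Without replicate 2 the difference at 8 h was 1.02 (adjusted p = 0.190), without replicate 1 it was 2.02 (0.0644), and on the arrays that pair bentazon and water directly it was 1.60 (0.0503). Without replicate 1 the difference at 1 h was 2.57 (0.0548).

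The values at 2 and 4 h are among those by which SARK was chosen, and they too lay on the side of PDR12. At 2 h Gm14453 stood at 5.32, 3.87 and 3.96 in bentazon minus water, fitted as 4.39 ± 0.612 (SE). At 4 h it stood at 5.28, 4.29 and 4.02, fitted as 4.53 ± 0.612 (SE). All 6 loop values at these times lay above the 3 at 8 h. Bentazon at 8 h minus bentazon at 4 h, which shared no array, was fitted as -2.75 ± 0.774 (SE), with loops at -4.23, -1.30 and -2.73. The bentazon effect at 8 h minus that at 4 h was -2.80 ± 0.711 (SE), with loops at -4.14, -1.15 and -3.12.

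Fitted values of Gm14453 in atrazine lay on the same side as in bentazon and closer to water. At 1 h the loops of atrazine minus water were 2.37, 2.10 and 1.38, fitted as 1.95 ± 0.612 (SE; limma adjusted p = 0.0742), which did not pass the threshold of 0.05. At 2 h, one of the values by which SARK was chosen, the loops were 2.57, 1.03 and 1.10, fitted as 1.57 ± 0.454 (SE). At 4 h they were 1.14, 1.47 and 1.79, fitted as 1.47 ± 0.454 (limma adjusted p = 0.0220). At 8 h they were -0.28, 0.17 and 1.12, fitted as 0.34 ± 0.612 (adjusted p = 0.790). The 3 loops thus lay clear of 0 at 1, 2 and 4 h and on both sides of it at 8 h. The 4 h difference shares its water RNA with bentazon minus water at 4 h, a value by which SARK was chosen. The call at 4 h was lost without replicate 1 (1.63, adjusted p = 0.139), without replicate 3 (1.31, 0.0624) and with arrays scaled to a common spread (1.29, 0.0681). At 1 h, 4 of the alternative settings brought the difference past the threshold, with values between 1.93 and 2.26.

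The 2 herbicides were compared directly on arrays at each time. Atrazine minus bentazon was -1.06 ± 0.454 at 1 h (SE; limma adjusted p = 0.189) and -1.39 ± 0.454 at 8 h (adjusted p = 0.0621). Loops at 1 h stood at -1.52, 0.20 and -1.85, and at 8 h at -1.41, -2.98 and 0.22, so 1 loop of 3 crossed 0 at each of these times. At 2 h the loops lay close together, at -2.75, -2.84 and -2.87, and at 4 h they were -4.14, -2.82 and -2.23. The fitted differences at 2 and 4 h, -2.82 ± 0.454 and -3.06 ± 0.454 (SE), rest on bentazon RNAs by which SARK was chosen.

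**Figure D1:**
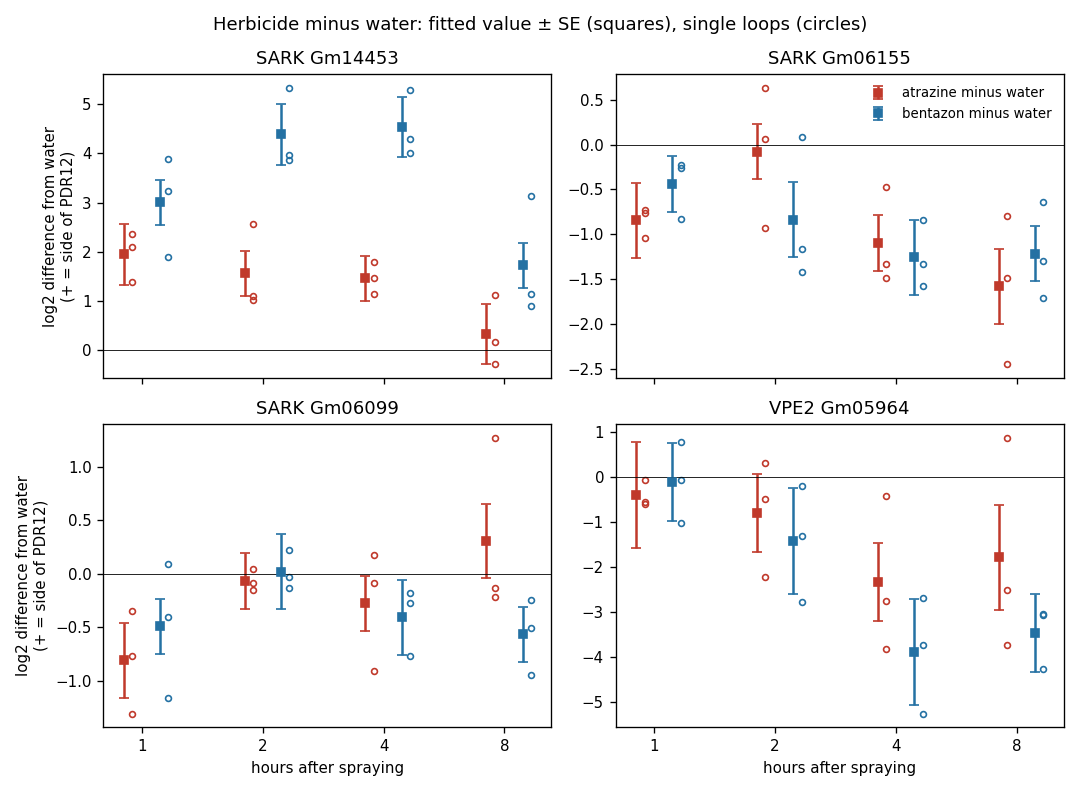
Log2 difference of atrazine (red) and bentazon (blue) from water, positive on the side of PDR12, at 1, 2, 4 and 8 h for the 4 probes tested. Squares are fitted values with SE and circles the 3 loops solved alone; Gm14453 reached 4.53 in bentazon at 4 h, while Gm06155 and VPE2 Gm05964 lay below 0 at 4 and 8 h in both herbicides.

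Levels relative to the mean of the 12 RNAs place all 4 bentazon groups of Gm14453 at the top and all 4 water groups at the bottom. From the top the order was bentazon at 4 h (3.28 ± 0.818), then its 2 h group (2.74 ± 0.651), its 1 h group (0.78 ± 0.860) and its 8 h group (0.52 ± 1.27; SD, n = 3 loops). Then came atrazine at 4 h (0.21 ± 0.264), 2 h (-0.07 ± 0.698), 1 h (-0.28 ± 0.243) and 8 h (-0.87 ± 0.756). Water followed at 8 h (-1.20 ± 0.0675), 4 h (-1.25 ± 0.289), 2 h (-1.64 ± 0.324) and 1 h (-2.23 ± 0.492). Of the 11 gaps between neighbours in this order, 3 exceeded the larger of the neighbours' SDs, and bentazon at 2 h against bentazon at 1 h was the only pair of neighbours whose loops did not overlap. Differences between the water groups were not called. Water at 2 h minus 1 h was 0.59 ± 0.454, at 4 h minus 2 h 0.39 ± 0.810 and at 8 h minus 4 h 0.05 ± 0.454 (SE; limma adjusted p between 0.973 and 0.999). Atrazine at 8 h minus 4 h was -1.08 ± 0.774 (adjusted p = 0.553).

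**Figure D2:**
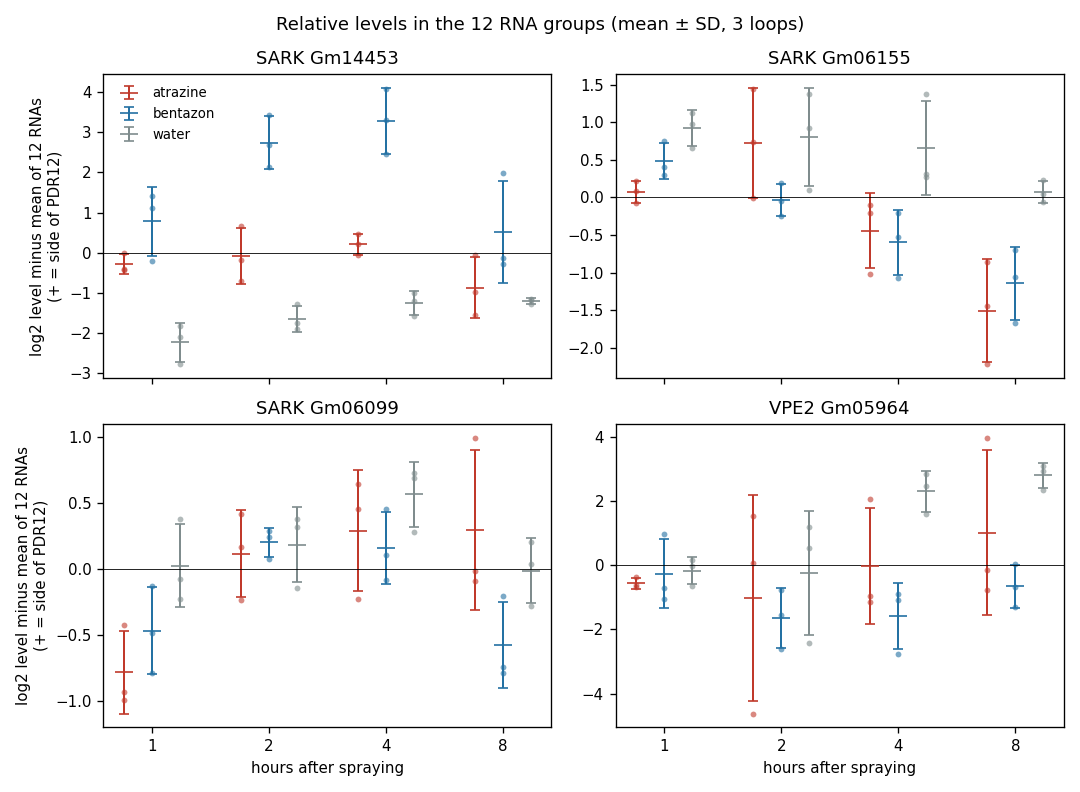
Log2 level of each tested probe relative to the mean of the 12 RNAs, positive on the side of PDR12, against hours after spraying for atrazine, bentazon and water. Bars are the mean and SD of 3 loops and points the loops; Gm14453 is highest in bentazon at 4 h (3.28) and lowest in water at 1 h (-2.23), and VPE2 Gm05964 spreads widely in atrazine.

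Gm06155, the second SARK probe, lay on the opposite side. Outside the herbicide RNAs by which SARK was chosen, this held in 9 of 9 loop values of atrazine minus water and in 6 of 6 of bentazon minus water. Atrazine minus water at 4 h, counted here, shares its water RNA with bentazon minus water at 4 h, a value of choice. At 4 h the loops of atrazine minus water were -0.48, -1.48 and -1.33, and the fit gave -1.10 ± 0.310 (SE; limma adjusted p = 0.0123). At 8 h they were -0.80, -1.49 and -2.45, with a fit of -1.58 ± 0.418 (adjusted p = 0.0105). For bentazon minus water at 8 h the loops were -0.65, -1.71 and -1.29, and the fit was -1.22 ± 0.310 (adjusted p = 0.00777). All 9 of these loop values were negative.

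Fitted values of Gm06155 at 1 and 2 h lay between -0.85 and -0.08, nearer to 0 than those at 4 and 8 h. Atrazine minus water at 1 h was -0.85 ± 0.418 (SE; limma adjusted p = 0.310), with loops of -0.76, -0.73 and -1.04. Bentazon minus water at 1 h was -0.44 ± 0.310 (adjusted p = 0.617). At 2 h, where SARK was chosen, bentazon minus water was -0.84 ± 0.418 and atrazine minus water -0.08 ± 0.310 (SE). At 4 h, also a time of choice, bentazon minus water was -1.25 ± 0.418, with loops of -1.34, -1.58 and -0.85. Atrazine minus bentazon was -0.41 ± 0.310 in the 1 h comparison (adjusted p = 0.536) and -0.36 ± 0.310 in the 8 h comparison (adjusted p = 0.571), with loops on both sides of 0 at 8 h.

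The calls of Gm06155 were lost when single replicates were left out. Without replicate 2 the atrazine differences of Gm06155 were -0.90 at 4 h (limma adjusted p = 0.156) and -1.62 at 8 h (0.0803), and the bentazon difference at 8 h was -0.97 (0.145). Without replicate 3 the atrazine difference at 8 h was -1.14 (0.0924). In the order of levels, water at 1 h (0.92 ± 0.241), water at 2 h (0.80 ± 0.647) and atrazine at 2 h (0.72 ± 0.728) stood highest. Bentazon at 8 h (-1.14 ± 0.486) and atrazine at 8 h (-1.51 ± 0.684; SD, n = 3 loops) stood lowest. Only 2 of its 11 neighbour gaps exceeded the larger SD.

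Gm06099, the third SARK probe, had the narrowest range, with levels spanning 1.35 against 5.51 for Gm14453 on the log2 scale. None of its differences from water passed the threshold. Atrazine minus water was -0.81 ± 0.349 at 1 h (SE; limma adjusted p = 0.229), -0.28 ± 0.259 at 4 h (0.519) and 0.31 ± 0.349 at 8 h (0.643). Bentazon minus water was -0.49 ± 0.259 at 1 h (0.429) and -0.57 ± 0.259 at 8 h (0.136). At the times by which SARK was chosen, atrazine minus water stood at -0.07 ± 0.259 (2 h). Bentazon minus water stood at 0.02 ± 0.349 (2 h) and -0.41 ± 0.349 (4 h; SE).

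Its one called difference between herbicides was atrazine minus bentazon at 8 h, 0.87 ± 0.259 (SE; limma adjusted p = 0.0378), with loops of 0.73, 0.11 and 1.78. Replicate 3 had the highest loop value, and without replicate 3 the difference was 0.42 (adjusted p = 0.383). Of 14 alternative settings, 6 took the adjusted p past 0.05, among them leaving out replicate 1 (0.95, adjusted p = 0.254).

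Values of the 3 SARK probes are set against each other here as a description, since many rest on RNAs by which SARK was chosen. Over the 36 arrays, with ratios turned as hybridised, Pearson's r was -0.170 between Gm06099 and Gm06155, -0.260 between Gm06099 and Gm14453, and -0.431 between Gm06155 and Gm14453. Spearman's rho over the same arrays was 0.0795, -0.328 and -0.386, so the sign for the first pair depended on the measure. Pearson's r over the 12 fitted levels was 0.0932, -0.0852 and -0.374 for the same pairs. In the 12 differences between treatments at 1 time, Gm06155 and Gm14453 had the same sign in 2, Gm06099 and Gm14453 in 4, and Gm06099 and Gm06155 in 8. Without the herbicide RNAs by which SARK was chosen, 24 arrays and 7 differences are left, a choice made after seeing the data. On those arrays r was -0.195, -0.355 and -0.360 for the pairs in the same order, and the same sign was found in 5, 2 and 2 of the 7 differences, starting with Gm06099 and Gm06155 and ending with Gm06155 and Gm14453. Gm06155 and Gm14453 were both called in 2 of the 7, atrazine minus water at 4 h and bentazon minus water at 8 h, and lay on opposite sides in both. The first of these differences shares its water RNA with bentazon minus water at 4 h, a value of choice. Arrays share RNA extracts around the loop, so these values of r are descriptions.

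For scale, the annotation gives 1377 pairs of tested probes of a single gene, in 254 genes. Their median r over arrays was 0.339, with quartiles at -0.00962 and 0.795. Genes with many probes supply many of these pairs, and the median of the 254 genes' own median r was 0.150. A negative r was found in 355 pairs, or 25.8%. On the 24 arrays without the herbicide RNAs of choice the median over pairs was 0.383, and 27.1% of pairs were negative. Where both probes of a pair were called in one of the 7 differences, 36 of 578 cases (6.23%) lay on opposite sides, the SARK cases included. In 21 genes, SARK itself included, the median r over their pairs was at or below the -0.260 of SARK. The annotation does not say whether the 3 SARK probes come from the same transcript or from related kinases. A statement about SARK as a gene therefore depends on which probe is read.

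**Figure D3:**
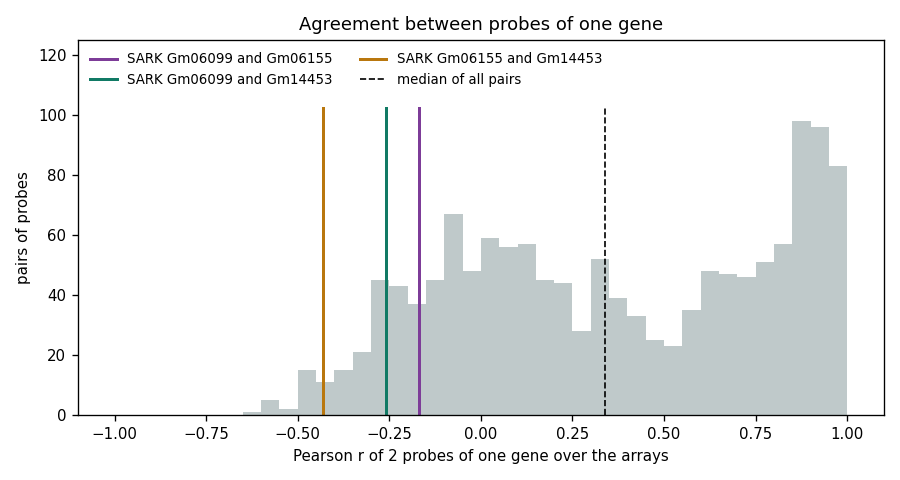
Histogram of Pearson's r over arrays for the 1377 pairs of probes annotated to a single gene, as number of pairs per bin. Coloured lines mark the 3 SARK pairs at -0.170, -0.260 and -0.431, left of the dashed median of all pairs at 0.339.

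VPE2 probe Gm05964 lay on the side opposite to PDR12 in 10 of 12 loop values of atrazine minus water, and in 5 of 6 of bentazon minus water at 1 and 2 h. Atrazine minus water at 4 and 8 h shares its water RNAs with the bentazon values that chose VPE2, so the first count is not free of the choice. The bentazon values at 4 and 8 h are those by which VPE2 was chosen. At 4 h the loops were -3.72, -2.67 and -5.25, fitted as -3.88 ± 1.17 (SE). At 8 h they were -4.25, -3.04 and -3.07, fitted as -3.45 ± 0.871 (SE). All 6 were below every loop value at 1 and 2 h except that of replicate 2 at 2 h, at -2.77, which lay below one of them.

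Earlier bentazon values of Gm05964 did not pass the threshold. Bentazon minus water was -0.10 ± 0.871 at 1 h (SE; limma adjusted p = 0.987), with loops of -1.02, -0.07 and 0.80. At 2 h it was -1.42 ± 1.17 (adjusted p = 0.561), with loops of -1.30, -2.77 and -0.19. Without replicate 3 the difference at 2 h was -2.03 (adjusted p = 0.0294). A test on the 3 separately solved loops left it at -1.42 (0.00413). That p does not reflect the spread of these 3 loops alone, which ran between -2.77 and -0.19. Of 13 alternative settings, only these 2 called the difference. Across the 13 it ran up to -0.46, with limma adjusted p up to 0.898.

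Atrazine values of Gm05964 were negative on average at each time and differed between replicates. At 4 h the loops of atrazine minus water were -3.80, -2.75 and -0.41, and the fit was -2.32 ± 0.871 (SE; limma adjusted p = 0.0617). At 8 h the loops were -3.72, -2.50 and 0.88, with a fit of -1.78 ± 1.17 (adjusted p = 0.374). At 1 h the fit was -0.39 ± 1.17 (adjusted p = 0.918) and at 2 h -0.79 ± 0.871 (adjusted p = 0.702). Replicates 1 and 2 were far from water at 4 and 8 h, and replicate 3 was near it or on the other side. Without replicate 3 the differences were -3.28 at 4 h and -3.11 at 8 h, both past the threshold. Both use the water RNAs of the bentazon values by which VPE2 was chosen, so they are given as a description. Other settings went the other way. At 4 h, 4 of 14 settings called the difference, which ran up to -1.58 (limma adjusted p up to 0.548). At 8 h, 2 of 13 did, and the difference ran up to -0.81 (limma adjusted p up to 0.887).

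The single arrays show the same split. On the arrays that pair atrazine with bentazon at 4 h, Gm05964 stood at 0.30, 0.35 and 4.54, and at 8 h at 0.91, 0.97 and 3.65, with replicate 3 last in each. Atrazine at 8 h minus atrazine at 1 h gave -0.53, 0.11 and 4.65. Water at 2 h minus water at 1 h gave 0.94, 2.28 and -2.89, and atrazine minus bentazon at 2 h 0.45, 2.66 and -1.72. The level of atrazine at 2 h, solved by loop, was 0.06, 1.52 and -4.63, the widest spread of the 12 groups. Bentazon minus water at 8 h gave -3.87, -2.61 and -3.37, where the 3 replicates were close. Replicate 3 stood apart in comparisons with atrazine at 2, 4 and 8 h and with water at 2 h, and lay among the others for bentazon at 8 h.

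Atrazine minus bentazon for Gm05964 was -0.30 ± 0.871 at 1 h (SE; limma adjusted p = 0.910) and 0.63 ± 0.871 at 2 h (adjusted p = 0.737). At 2 h the loops were 0.83, 3.09 and -2.02, on both sides of 0, and without replicate 3 the difference was 1.96 (adjusted p = 0.00366). That was the only 1 of 14 settings with a call, and across the settings the difference ran down to -0.60. At 4 and 8 h, where VPE2 was chosen, the values were 1.56 ± 0.871 and 1.67 ± 0.871 (SE), with the loop of replicate 3 at 4.84 and 3.95 and the other loops between -0.08 and 0.54. Of the 12 groups, water at 8 h (2.80 ± 0.394) and at 4 h (2.30 ± 0.643) had the highest levels of Gm05964, and bentazon at 2 h (-1.65 ± 0.924) and 4 h (-1.58 ± 1.03) the lowest (SD, n = 3 loops). Atrazine at 8 h (1.02 ± 2.58) and 4 h (-0.02 ± 1.81) came next, then water at 1 h (-0.16 ± 0.420) and 2 h (-0.23 ± 1.93). No gap between neighbours in the order exceeded the larger SD. Water at 4 h minus 2 h was 2.53 ± 1.55 (SE; adjusted p = 0.958), with loops of 2.30, 0.38 and 4.91.

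Gm16176, the second VPE2 probe, gave values on 7, 6 and 4 arrays of replicates 1, 2 and 3. It had 2 values in 6 of the 12 comparisons, none in water at 2 h against 1 h and 1 in each of the rest. For atrazine minus water at 4 h it stood at -0.19 and -0.33 in replicates 1 and 3, where Gm05964 stood at -4.18 and -0.11 on the same arrays. For bentazon minus water at 8 h it stood at -0.19 and -0.67 in replicates 2 and 3, against -2.61 and -3.37 for Gm05964. Over the 17 shared arrays the probes had the same sign on 11, with Pearson's r = 0.532 and Spearman's rho = 0.363 as a description. All values of Gm16176 lay between -0.67 and 1.06, a narrower range than that of Gm05964, and the fitted differences of VPE2 rest on Gm05964 alone.

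**Figure D4:**
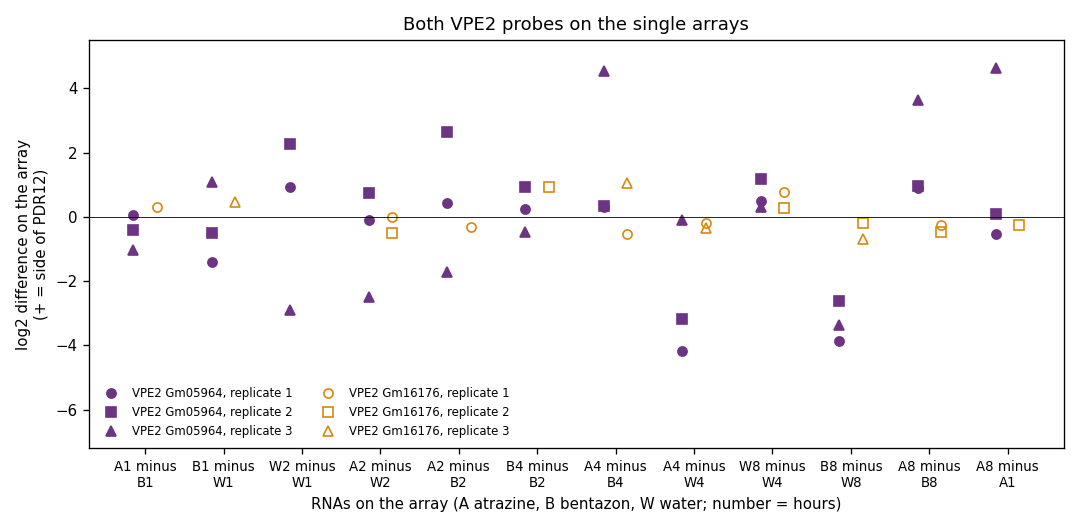
Log2 difference on each array for both VPE2 probes, positive on the side of PDR12, in the 12 comparisons of the loop, with a marker for each replicate. Gm05964 (filled) runs between -4.18 and 4.65 with replicate 3 often apart, and Gm16176 (open) stays between -0.67 and 1.06.

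Over the 4 differences of each kind and the 4 tested probes, 4 of 16 tests were called in atrazine minus water (9.57% over all probes), 8 of 16 in bentazon minus water (10.1%) and 3 of 16 in atrazine minus bentazon (8.14%). These counts include values by which the genes were chosen. In atrazine minus water at 1 h none of the 4 was called, where 3.4% of all probes tested were. The 2 h comparison had 1 call (5.24% of all probes), the 4 h comparison 2 (17.9%) and the 8 h comparison 1 (11.7%). In bentazon minus water, 1 of 4 was called in the 1 h comparison (3.35% of all probes) and 1 in the 2 h comparison (7.58%). There were 3 in the 4 h comparison (13.4%) and 3 in the 8 h comparison (16.3%). In atrazine minus bentazon, 0 of 4 were called in the 1 h comparison (5.84%), 1 in the 2 h comparison (9.62%), 1 in the 4 h comparison (10.8%) and 1 in the 8 h comparison (6.25%). Where no member was called at 1 h, 2 of 4 had an unadjusted p under 0.05 in atrazine minus water and 1 of 4 in atrazine minus bentazon (limma).

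Between times, Gm14453 in bentazon at 8 h minus 4 h was the only call in 9 contrasts, where 5.97% of all probes were called. This difference holds bentazon at 4 h, by which SARK was chosen, so the call is a description only. In the other time contrasts 0 of 4 members were called, with at most 1 of 4 at an unadjusted p under 0.05 in any of them (limma). The share of all probes was 7.77% for water at 8 h minus 4 h, 6.27% for bentazon at 4 h minus 2 h, 4.6% for atrazine at 8 h minus 4 h, 0.0117% for atrazine at 4 h minus 2 h and 0 in the rest. Among 6 changes of a herbicide effect between times, that of Gm14453 in bentazon at 8 h against 4 h was the only call (1.47% of all probes). It too holds bentazon at 4 h and is a description only. The share of all probes in the others was 0.0234%, 0.0176% and 0.041% for atrazine, in time order, and 0 and 0.00586% for bentazon, with at most 1 of 4 members at an unadjusted p under 0.05. Counts at the times by which the genes were chosen include the values that chose them, and nothing is read from those.

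Profiles most like those of the members were ranked by Pearson's r over the 12 fitted levels, among the 1058 other tested probes with 1 gene listed. The 12 levels include those by which the genes were chosen, so these ranks are descriptions. Nearest to Gm14453 were probes of LOC547474 (r = 0.945), LOC547843 (0.938), TBP1 (0.938) and the glutathione S-transferases GSTF5 (0.935) and GSTU30 (0.932), enzymes that conjugate herbicides and other foreign compounds. Each name, here and for the other members, stands for the probe that ranked, and other probes of that gene can differ. Between probes of one gene, r over arrays was 0.190 for LOC547474 and 0.129 for TBP1, against 0.856 for LOC547843. Most opposed were the transcription factors NAC6 (-0.880) and BZIP126 (-0.844). With PDR12 itself, r was 0.880, which ranked 143 among the 17061 other probes tested. PDR12 was taken as anchor with earlier results of these data known, so nothing is read from this rank. Gm14453 and PDR12 are both far from the mean in bentazon at 2 and 4 h, as the plot of both profiles shows.

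**Figure D5:**
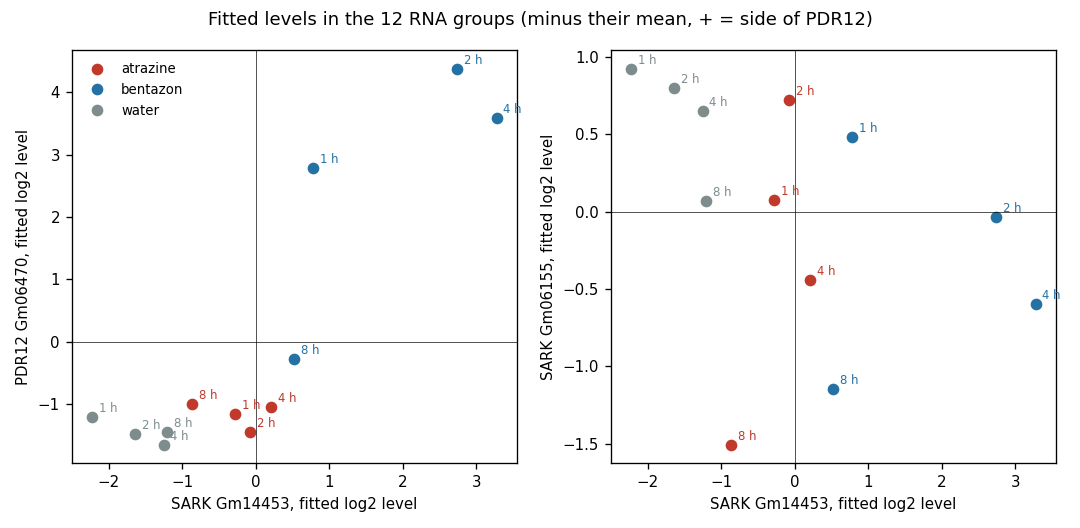
Fitted log2 levels of the 12 RNAs relative to their mean, with SARK Gm14453 on the horizontal axis and PDR12 (left) or SARK Gm06155 (right) on the vertical axis, coloured by treatment and marked with the hours. Pearson's r is 0.880 on the left and -0.374 on the right.

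The other members had other neighbours. Nearest to Gm06155 were 3 probes of LOC547643 (0.962, 0.955 and 0.950), the phosphoenolpyruvate carboxylase PEPC17 (0.958) and SPCP1 (0.943). The most opposed were the aldehyde dehydrogenase ALDH7B1 (-0.950) and LOC547651 (-0.937). Nearest to Gm06099 were HIDH (0.908), an enzyme of isoflavone synthesis, LOC100101868 (0.804), LOC548038 (0.787), the chalcone synthase CHS1 (0.729) and histone H4 (0.715), with LOC100037475 (-0.775) and LOC547698 (-0.751) most opposed. Nearest to Gm05964 were EN2 (0.968), AT-1SNBP (0.919), ACS1 (0.913), LOC732571 (0.892) and MAN1 (0.866), with BZIP36 (-0.916) and LOC547870 (-0.894) most opposed. None of these genes was named for more than one member.

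VPE, another vacuolar processing enzyme gene, has 4 probes, all tested. Its probe Gm18164 lay on the side of PDR12, unlike VPE2 Gm05964. Atrazine minus water was 1.21 ± 0.309 at 1 h (SE; limma adjusted p = 0.0228), with loops of 1.12, 1.72 and 0.79, then 0.69 ± 0.229 at 4 h (0.0348) and 0.94 ± 0.309 at 8 h (0.0429). Bentazon minus water was 0.71 ± 0.229 at 8 h (adjusted p = 0.0318). A second VPE probe, Gm16794, was called in atrazine minus water at 8 h (0.93 ± 0.262, adjusted p = 0.0171), with loops of 1.14 and 0.91 and no complete loop in replicate 3. The other VPE probes were not called in any of the 12 differences between treatments at 1 time.

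Among 14 probes of 5 other genes of senescence and cell death (VPE, NRP-A, NAC6, SGR1 and SGR2), 6 calls on the side of PDR12 and 2 on the opposite side were made in 112 tests of herbicide minus water, or 7.14%. Over all probes tested the share was 9.86%. The list's median ran between -0.11 and 0.39 over those 8 differences, and that of all probes between -0.05 and 0.03. Probe Gm05255 of SGR1, a stay-green protein of chlorophyll breakdown, was called in bentazon minus water at 4 h (1.17 ± 0.341, limma adjusted p = 0.0190). Probe Gm11691 of NAC6, a transcription factor of stress-induced cell death in soybean, was called in bentazon minus water at 1 h (-1.12 ± 0.305, adjusted p = 0.0318) and 2 h (-1.43 ± 0.411, adjusted p = 0.0273). No other probe of SGR1 or NAC6 was called in herbicide minus water. NRP-A, an asparagine-rich protein of the same response, was called by 2 probes in atrazine minus bentazon at 2 h (-1.12 ± 0.360 and -0.93 ± 0.304).

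Among 25 tested probes of 11 protease and inhibitor genes, 10 calls on the side of PDR12 and 6 on the other were made in 200 tests (8%). KTI-2, a Kunitz trypsin inhibitor, was at -1.73 ± 0.334 at 4 h and -2.63 ± 0.451 at 8 h in atrazine minus water, and at -1.90 ± 0.334 at 8 h in bentazon minus water (SE; limma adjusted p at most 3.34e-04). MMP2, a matrix metalloproteinase, was at 1.99 ± 0.593 in atrazine minus water at 4 h (adjusted p = 0.0178) and at 3.13 ± 0.593 in atrazine minus bentazon at 4 h (5.07e-04). CP3, a cysteine protease, was called in both herbicides at 4 and 8 h by one probe, with 0.58 to 1.28 in atrazine and 1.11 to 1.18 in bentazon.

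Among 10 tested probes of 8 kinase genes, 4 calls on the side of PDR12 and 7 on the other were made in 80 tests (13.8%). CDPK-GAMMA, a calcium-dependent kinase, was at 1.87 ± 0.360 at 2 h and 1.81 ± 0.360 at 4 h in bentazon minus water (SE; limma adjusted p = 7.44e-04 and 8.40e-04). NARK, the leucine-rich repeat receptor-like kinase of nodule number control, was called on the opposite side in both herbicides at 2, 4 and 8 h, between -1.17 and -0.81. PK6 was at -1.67 ± 0.313 in atrazine minus water at 8 h (adjusted p = 4.02e-04). Probe Gm00423 of MAPKK2, a MAP kinase kinase, was at 0.77 ± 0.202 and 0.84 ± 0.272 at 4 h in atrazine and bentazon minus water (adjusted p = 0.00733 and 0.0373). No other MAPKK2 probe was called in herbicide minus water.

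Among 40 tested probes of 12 genes of vacuolar and storage proteins, 13 calls on the side of PDR12 and 8 on the other were made in 320 tests (6.56%). Probe Gm10700 of GY1, a glycinin storage protein of the seed, was at 1.25 ± 0.183 at 1 h in bentazon minus water (SE; limma adjusted p = 2.35e-05), 1.17 ± 0.246 at 2 h and 0.94 ± 0.246 at 4 h. No other GY1 probe was called in herbicide minus water. LOXB1, a lipoxygenase, was called by 4 probes in atrazine minus water at 8 h, between -1.98 and -1.62. Among 5 probes of EREB and EREBP1, factors that bind ethylene-response elements, 1 call on each side was made in 40 tests (5%). These were EREB at 1.08 ± 0.330 and EREBP1 at -0.89 ± 0.221 in bentazon minus water at 4 h (adjusted p = 0.0275 and 0.00626). VPE belongs to 3 of the lists and is counted in each.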

How the data were processed

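The authors deposited 1 table of log ratios with 36 columns, 1 per array, and per the labels each column is a 2-colour array of leaflet RNA. The deposited log2 scale is taken from the values. Numerator, log base, background correction, normalization and the treatment of technical repeats are not stated in these sources. Column medians lay between -0.047 and 0.0464. With 3 arrays per comparison, array number sets the precision. Probes were named from the platform annotation, where 1158 probes had 1 gene, 13 several and 18029 none.

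One linear model per probe, with 11 RNA differences and a dye term, was fitted to all 36 arrays. Spread was moderated with limma 3.58.1 in R 4.3.3, and p-values were adjusted by Benjamini-Hochberg over 17062 probes in each of 27 contrasts, with a threshold of 0.05. Probes needed values on at least 2 of 3 arrays in each comparison. The code was tested on simulated data. Figures were drawn with matplotlib 3.10.9.

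Members and gene lists were chosen with earlier results of these data known. Named are all members, the 5 most like and 2 most opposite probes of each, and up to 4 examples a list. Arrays of 1 replicate number that share no RNA had a median correlation of deviations of 0.0104 over 162 pairs, so replicate numbers were not treated as pairing. Replicates are biological per the series' design text.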

Additional observations from a re-analysis of the deposited data

Results flagged for a closer look

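SARK Gm06099 differed between atrazine and bentazon at 8 h, by 0.87 on the log2 scale, in a test of the difference itself. This call was lost in 6 of 14 alternative settings. The other SARK probes lay on the opposite side in the same difference, Gm06155 at -0.36 and Gm14453 at -1.39, and were not called. Differences that hold a herbicide RNA by which the gene was chosen were left out of the search for flagged results. No comparison had the 4 or more replicates that a check for single outlying samples needs, so none was made.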

How the results depend on the processing

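Each probe's 12 differences between treatments at 1 time were recomputed under up to 14 settings, 656 values in all: 587 kept direction and side of the threshold, 29 lost a call, 20 gained one and 20 changed sign, none of these called in either setting. Main counts of calls were 4 for atrazine minus water, 8 for bentazon minus water, 3 for atrazine minus bentazon, 1 between times and 1 for changes of effect, values by which the genes were chosen included. Leaving out single replicates gave 2 to 4, 3 to 9, 2 to 4, 0 to 1 and 0 to 1. Over all probes the share called went to between 2.41% and 9.04% for atrazine minus water, against 9.57% with all replicates, and to between 2.05% and 9.27% for bentazon minus water, against 10.1%. For atrazine minus bentazon it went to between 2.24% and 8.13%, against 8.14%. Between times it went to between 0.408% and 2.53%, against 2.73%. For changes of effect it went to between 0.00293% and 0.389%, against 0.259%. Solving each loop alone gave 8 for atrazine minus water (10% of all probes) and 2 between times (2.55%, against 2.73%). Array weights gave 7 for atrazine minus water and 5 for atrazine minus bentazon, where the shares of all probes were 20.3% and 19.8%, against 9.57% and 8.14%. A robust prior, scaled arrays and leaving out the 4 arrays that close their loop less well, the last chosen after seeing the data, each gave 0 between times and 0 for changes of effect. The shares of all probes there were 2.7%, 2.45% and 1.45% between times, in that order. For changes of effect they were 0.261%, 0.169% and 0.111%. Without the 4 arrays, atrazine minus water had 3 calls (8.78% of all probes), bentazon minus water 8 (7.95%) and atrazine minus bentazon 2 (7.57%). A replicate block, for which the check of pairing gave no ground, gave 4, 8, 2, 1 and 1 (9%, 9.57%, 7.55%, 2.54% and 0.226% of all probes). With the block, the call of Gm06099 in atrazine minus bentazon at 8 h was lost (limma adjusted p = 0.0504). That call was also lost without those 4 arrays (0.0620). The cause was not tested.

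Without single replicates, Gm06099 ran between -0.50 and 0.0437 in atrazine minus water at 4 h, -0.17 and 0.57 at 8 h, -0.0822 and 0.0975 in bentazon minus water at 2 h, and -0.22 and 0.0274 in atrazine minus bentazon at 2 h. Gm06155 ran between -0.43 and 0.35 in atrazine minus water at 2 h, and in atrazine minus bentazon between -0.20 and 0.48 at 4 h. Its 8 h range there was -0.65 to 0.0337. Gm14453 ran between -0.0554 and 0.64 in atrazine minus water at 8 h. Gm05964 ran between -0.55 and 0.36 in bentazon minus water at 1 h, and in atrazine minus bentazon its ranges were -0.66 to 0.22 at 1 h, -0.60 to 1.96 at 2 h, and -0.0796 to 2.38 at 4 h. Other sign changes were those of Gm06099 in bentazon minus water at 2 h with scaled arrays (-0.0518) and without the 4 arrays (-0.0141), of Gm06155 in atrazine minus water at 2 h with array weights (0.0574) and on direct arrays (0.0556), of Gm14453 in atrazine minus water at 8 h with array weights (-0.29) and scaled arrays (-0.0288), and of Gm05964 in bentazon minus water at 1 h without the 4 arrays (0.0639) and in atrazine minus bentazon at 1 h with array weights (0.0021). All probes were refitted in these settings, and values of single genes other than the members are not given.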

Other observations

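Across genes, SARK Gm06099 and VPE2 Gm05964 had r = 0.428 over the 36 arrays, SARK Gm06155 and VPE2 Gm05964 -0.0767, and SARK Gm14453 and VPE2 Gm05964 -0.293. Over the 12 fitted levels the same pairs stood at 0.285, 0.0567 and -0.642. The dye term, the mean offset between channels, was between -0.12 and 0.17 on the log2 scale for the 4 tested probes. The untested VPE2 probe Gm16176 had r between -0.543 and -0.155 with the 4 VPE probes over its 17 arrays.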
